A study of Mus musculus with 12 samples.

Results

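The killer lectin receptors measured here are 6 genes of the C-type lectin-like family that natural killer (NK) cells and cytotoxic T lymphocytes (CTL) carry on their surface: Klrd1, Klrc1, Klrc2, Klrk1, Klre1 and Klrg1. They were read from every probe set annotated to 1 of these genes, including those that also name another gene, which gave 8 of the 45037 probe sets tested and 6 of the 18193 genes that a probe set names alone. Klrc1 had 2 probe sets. Klrc2 had 2, of which 1 is shared with Klrc3, and the other 4 genes had 1 each.

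RNA came from mouse CTL on 12 Affymetrix arrays, 3 for each of 4 groups, in 2 separate experiments. PDK1 null CTL were made from splenocytes of 3 PDK1fl/fl mice that carry a tamoxifen-regulated Cre (creEsr1) in the ROSA26 locus of C57BL/6 mice. Cre control CTL came from 3 mice with the same Cre and wild-type PDK1 alleles, and both groups received 0.6 μM 4OHT, the active form of tamoxifen, for the last 72 h, so both carry active Cre. AktI CTL and wild type CTL came from 3 wild-type C57BL/6 mice, with part of the culture of each mouse given 1 μM of the Akt inhibitor AktI-1/2 for the last 48 h and the rest left without it. All splenic T cells were activated for 48 h with 0.5 μg/ml CD3 antibody and then kept for 5 days in 20 ng/ml IL-2. For the Akt experiment the study also names IL-2 during the activation. The age of the mice was not given in the sources used here, and the ROSA26 locus is active in all cells, so that Cre is not limited to CD8+ T cells.

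Within a group, arrays correlated with r between 0.996 and 0.998. The 8 probe sets of the T cell and CD8 marker list were all above background, with a log2 summed signal of 15.05 to 15.15 in PDK1 null and 15.13 to 15.19 in Cre control CTL, and of 15.53 to 15.60 in AktI and 15.71 to 15.79 in wild type CTL. Of these 8, Cd2, a T cell adhesion receptor, rose by 0.67 after PDK1 deletion (adjusted p 0.0151 in limma), a call lost without PDK1 null replicate 1 or 3 or Cre control replicate 2 or 3 (adjusted p 0.0457 to 0.0582, the lowest of them under 1.5-fold). With AktI Prf1, which encodes perforin, fell by 2.20 (adjusted p 0.000164). Gzmb, the brightest of the 8 and so a large part of the sum, differed by -0.34 with AktI (adjusted p 0.0192 in limma, under 1.5-fold). The Cd2, Cd3 and Cd8 probe sets of the list differed with AktI by -0.09 (Cd3e) to 0.50 (Cd8b1). The 2 Pdpk1 probe sets differed by 0.05 and -0.04 on the log2 scale between PDK1 null and Cre control CTL, and whether they lie in the deleted part is not known, so they do not check the label. Signals are log2 values, 1 unit of which is a doubling, and the array medians differed between the experiments (4.61 to 4.63 and 5.10 to 5.14), so effects but not levels were set side by side. Background was a log2 signal of 4.44 in the PDK1 experiment and 4.89 in the Akt experiment, the 95th percentile over 91 probe sets for odorant and pheromone receptors.

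CD94, encoded by Klrd1, joins with a chain of the NKG2 family to bind Qa-1, the mouse counterpart of human HLA-E. With NKG2A, the product of Klrc1, the pair recruits phosphatases that restrain killing, whereas with NKG2C or NKG2E, the products of Klrc2 and Klrc3, it signals through the adaptor DAP12 (Tyrobp) to activate. NKG2D (Klrk1) binds stress-induced ligands and signals through DAP10 (Hcst), Klrg1 binds cadherins and inhibits, and Klre1 forms receptors with Klri1 or Klri2. On CD8+ T cells several of these receptors appear after activation and are used as marks of effector differentiation.

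In RefSeq (GRCm38.p6), Klre1, Klrd1, Klrk1, Klrc3, Klrc2 and Klrc1 follow each other on chromosome 6 with no other protein-coding gene between them, in the NK gene complex, and Klrg1 lies apart from them on the same chromosome. The 250 bases before 1 annotated start are shown for the gene called after PDK1 deletion (Klre1), for the inhibitory NKG2 gene (Klrc1) and for the pair that shares the probe set called with AktI (Klrc2 and Klrc3). Capitals mark the RUNX hexamer TGTGGT or its reverse complement ACCACA.
Klre1 (chr6:129577963-129578212, plus strand): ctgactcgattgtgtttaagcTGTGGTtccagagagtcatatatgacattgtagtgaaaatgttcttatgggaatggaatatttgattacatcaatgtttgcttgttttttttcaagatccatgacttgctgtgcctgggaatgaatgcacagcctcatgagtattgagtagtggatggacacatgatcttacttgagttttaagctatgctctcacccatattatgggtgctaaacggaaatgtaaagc
Klrc1 (chr6:129678974-129679223, minus strand): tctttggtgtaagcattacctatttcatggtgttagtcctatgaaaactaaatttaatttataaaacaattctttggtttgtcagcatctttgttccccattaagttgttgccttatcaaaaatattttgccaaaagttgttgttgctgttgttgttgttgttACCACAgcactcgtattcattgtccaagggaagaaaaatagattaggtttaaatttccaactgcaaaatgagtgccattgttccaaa
Klrc2 (chr6:129660557-129660806, minus strand): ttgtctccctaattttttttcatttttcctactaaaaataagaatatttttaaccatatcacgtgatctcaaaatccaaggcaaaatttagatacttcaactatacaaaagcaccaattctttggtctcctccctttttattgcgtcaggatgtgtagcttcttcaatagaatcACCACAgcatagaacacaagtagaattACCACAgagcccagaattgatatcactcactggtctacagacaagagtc
Klrc3 (chr6:129643289-129643538, minus strand): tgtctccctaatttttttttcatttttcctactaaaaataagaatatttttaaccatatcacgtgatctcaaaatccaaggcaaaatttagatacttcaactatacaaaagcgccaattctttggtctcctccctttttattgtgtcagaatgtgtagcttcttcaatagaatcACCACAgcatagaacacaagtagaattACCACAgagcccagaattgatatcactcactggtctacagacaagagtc
The printed windows of Klrc2 and Klrc3 were the same at 246 of 251 aligned columns (98%), against 51.5% and 52.6% between Klrc1 and each of them. Before the other annotated start of Klrc2, not printed, the window matched that of Klrc3 at 70.8%. The hexamer stood in 1 copy before Klrc1, Klrk1 and the first annotated start of Klre1, in 2 copies before Klrc2 and Klrc3, and in 0 copies before the other start of Klre1. Of all 32851 windows of this length, 14% held it on either strand. The FOXO motif TGTTTAC, held by 3.17% of all windows, and the T-box motif TCACACC, held by 3.33%, were in none of these windows. A match describes the letters only. Klrd1 and Klrg1 had no entry.

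Of the 8 probe sets, 6 were above background in the PDK1 experiment and 7 in the Akt experiment. The probe set that names Klrc2 alone (1450304_at) stayed below background in all groups, with signals of 2.54 to 2.83 in PDK1 null, 2.53 to 2.77 in Cre control, 3.17 to 3.29 in AktI and 3.00 to 3.28 in wild type CTL. The probe set shared by Klrc2 and Klrc3 (1421795_s_at) was above background in the Akt experiment only. The plot of signals by array shows all 8 probe sets.

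**Figure D1:**
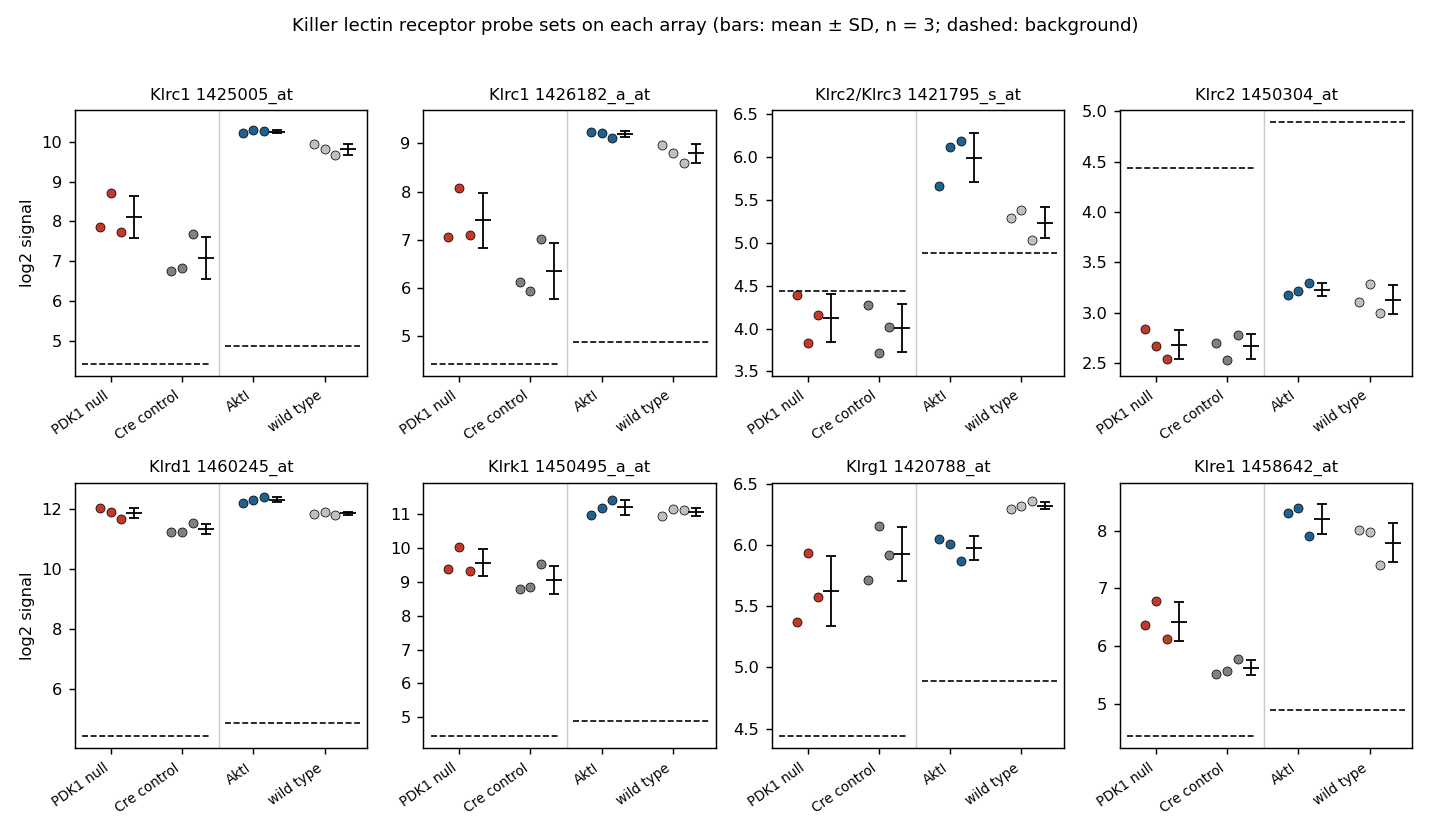
Log2 signal (vertical axis) of the 8 killer lectin receptor probe sets on each of the 12 arrays, with the mean ± SD of each group (n = 3) and the background of each experiment (dashed). The 3 PDK1 null arrays lie above the 3 Cre control arrays for Klrc1, Klrd1 and Klre1, the 3 AktI arrays lie above the 3 wild type arrays for Klrc1, Klrc2/Klrc3 and Klrd1, and Klrg1 is the probe set with all AktI arrays below wild type.

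The comparison of PDK1 null with Cre control CTL asks which of these receptors depend on PDK1, the kinase that activates Akt and other AGC kinases. Klre1 rose 1.74-fold and was the only 1 of the 8 probe sets to pass the test (adjusted p under 0.05 in limma over all probe sets, and at least 1.5-fold), and 0 fell. Over all 45037 probe sets 1.02% passed, 0.737% as higher and 0.282% as lower. Klrc1 had larger fold differences than Klre1 (2.01 and 2.07) but did not pass, and its arrays spread more. The log2 difference was above 0 for 7 of the 8 probe sets, with a median of 0.53 against -0.01 over all probe sets. These 7 include both Klrc1 probe sets. They also include the Klrc2/Klrc3 (0.12) and Klrc2 (0.01) probe sets, which were below background in this experiment. By the adjusted p alone 1 of the 8 passed, against 1.85% of all probe sets. All 3 PDK1 null arrays were above all 3 Cre control arrays for 4 of the 8, against 9.68% of all probe sets. The receptors were chosen with earlier results of these data known, and all probe sets take in those below background. The median and these counts are therefore no test of the receptors as a group. Because these are bulk cultures, a larger share of cells with a receptor and more of its RNA per cell cannot be told apart, nor can their opposites where a value was lower.

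Klre1 (1458642_at) had signals of 6.36, 6.79 and 6.13 in PDK1 null CTL, against 5.52, 5.57 and 5.78 in Cre control CTL. The groups did not overlap, and PDK1 null replicate 2 was the highest array. The log2 difference was 0.80 ± 0.157 (SE), with a 95% confidence interval of 0.44 to 1.16 and an adjusted p of 0.0462 in limma. This call was lost without PDK1 null replicate 1 (adjusted p 0.114) and without Cre control replicate 1 (0.142), 2 (0.162) or 3 (0.112), while the difference stayed between 0.62 and 0.95. Permutation of 3 against 3 arrays cannot give a p below 0.1, so adjusted p-values here are those of limma.

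The subunits of the CD94 receptors lay higher in PDK1 null CTL without passing the test. Klrd1 (1460245_at), the common subunit, had signals of 12.03, 11.91 and 11.69 in PDK1 null CTL, against 11.25, 11.24 and 11.53 in Cre control CTL. The groups did not overlap, although Cre control replicate 3 came close to the lowest PDK1 null array. Its log2 difference was 0.54 ± 0.114 (SE; 1.45-fold), with an interval of 0.28 to 0.80 and an adjusted p of 0.0600 in limma. Klrc1, the inhibitory chain, had signals of 7.85, 8.71 and 7.75 in PDK1 null CTL, against 6.75, 6.82 and 7.69 in Cre control CTL on 1425005_at. On 1426182_a_at it had 7.05, 8.07 and 7.11 in PDK1 null CTL, against 6.12, 5.94 and 7.03 in Cre control CTL. Both probe sets showed the same picture, with PDK1 null replicate 2 and Cre control replicate 3 far above the other arrays of their groups and the groups apart by a narrow margin. The log2 differences were 1.01 ± 0.303 and 1.05 ± 0.331 (SE), with adjusted p-values of 0.156 and 0.177 in limma. Both passed in 1 model over all 12 arrays, where the groups share an estimate of the spread (0.0354 and 0.0474). That estimate takes in the tighter arrays of the Akt experiment. On 1425005_at the SD was 0.53 in PDK1 null and 0.52 in Cre control CTL, against 0.04 in AktI and 0.14 in wild type CTL.

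The activating receptors gave less. Klrk1 (1450495_a_at), which encodes NKG2D, had signals of 9.37, 10.03 and 9.32 in PDK1 null CTL, against 8.78, 8.84 and 9.52 in Cre control CTL. The groups overlapped, with the same 2 arrays high as for Klrc1. Klrk1 differed by 0.52 on the log2 scale, with an interval of -0.02 to 1.06 (adjusted p 0.347, limma). The Klrc2/Klrc3 probe set had signals of 4.39, 3.83 and 4.15 in PDK1 null CTL, against 4.27, 3.72 and 4.02 in Cre control CTL, all below background, so no level was measured. Klrg1 (1420788_at), the inhibitory receptor for cadherins, had signals of 5.37, 5.93 and 5.58 in PDK1 null CTL, against 5.71, 6.15 and 5.92 in Cre control CTL. It was the only member with a log2 difference below 0 (-0.30, interval -0.66 to 0.05, adjusted p 0.418 in limma), and its groups overlapped.

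**Figure D2:**
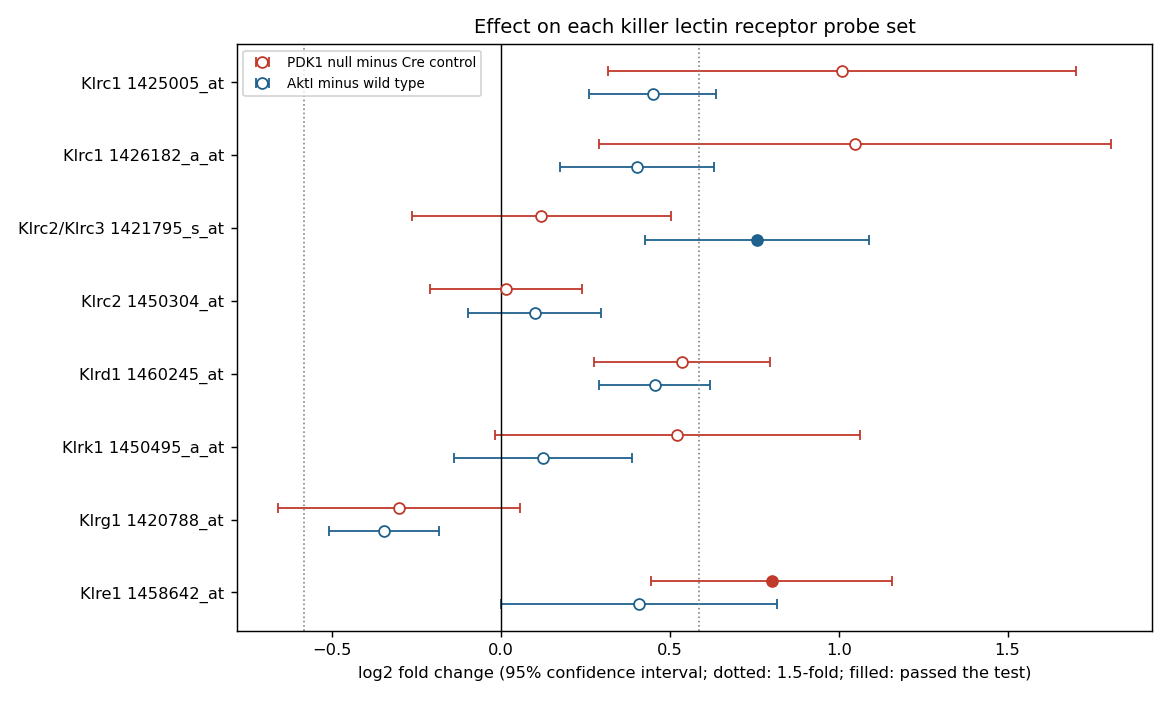
Log2 fold change (horizontal axis) of each probe set with its 95% confidence interval, PDK1 null minus Cre control above and AktI minus wild type below in each pair, n = 3 arrays per group. Filled points passed the test, Klre1 at 0.80 after PDK1 deletion and Klrc2/Klrc3 at 0.76 with AktI, and intervals are wider for Klrc1 after PDK1 deletion than with AktI.

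The comparison of AktI with wild type CTL asks which of these receptors depend on Akt activity itself. The Klrc2/Klrc3 probe set rose 1.69-fold and was the only 1 of the 8 to pass, and 0 fell, where 1.94% of all probe sets passed, 1.20% as higher and 0.739% as lower. Differences were smaller than 1.5-fold but past an adjusted p of 0.05 for Klrd1 and 1 Klrc1 probe set, which were higher, and for Klrg1, which was lower. By the adjusted p alone 4 of the 8 passed (3 higher and 1 lower), against 5.17% of all probe sets (2.99% higher and 2.18% lower). With mouse as a block 5 passed as higher and 0 as lower by the adjusted p alone, against 2.76% and 1.99% of all probe sets: Klre1 (0.0311) and the other Klrc1 probe set (0.0400) were gained, and Klrg1 was lost (0.0642). The median log2 difference of the 8 was 0.41, against -0.01 over all probe sets. All AktI arrays were above all wild type arrays for 4 of the 8 and below for 1, against 11.4% and 12.1% of all probe sets. As in the PDK1 experiment, the median and these counts are no test of the receptors as a group.

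The Klrc2/Klrc3 probe set had signals of 5.67, 6.12 and 6.19 in AktI CTL, against 5.28, 5.38 and 5.03 in wild type CTL. The groups did not overlap, and the wild type arrays lay just above background. The log2 difference was 0.76 ± 0.146 (SE), with an interval of 0.42 to 1.09 and an adjusted p of 0.0216 in limma. By mouse it was 0.38, 0.73 and 1.16, so its size varied between the mice but not its direction. It was also the 1 member called with mouse as a block, where 1.21% of all probe sets passed as higher. This call was lost without AktI replicate 2 (adjusted p 0.0833) or 3 (0.0692) and without wild type replicate 1 (0.0674) or 3 (0.0699). The probe sets that name Klrc2 alone (0.10) and Klrc3 alone (0.19) were below background in all groups, so which of these genes gave the signal cannot be told apart, and the pair shares near-identical sequence before the start as printed for them.

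Klrd1 had signals of 12.22, 12.32 and 12.40 in AktI CTL, against 11.85, 11.92 and 11.82 in wild type CTL. The groups lay apart and each was tight. Klrd1 thus differed by 0.45 ± 0.0719 on the log2 scale (SE; 1.37-fold, adjusted p 0.00893 in limma), and by 0.37, 0.41 and 0.58 in the 3 mice. Klrc1 had signals of 10.21, 10.29 and 10.26 in AktI CTL, against 9.94, 9.82 and 9.66 in wild type CTL on 1425005_at, and 9.25, 9.22 and 9.12, against 8.98, 8.81 and 8.59, on 1426182_a_at. AktI arrays were again above wild type arrays on both, with less spread than in the PDK1 experiment. The log2 differences were 0.45 ± 0.0828 (1.37-fold) and 0.40 ± 0.0998 (1.32-fold; SE), with adjusted p-values of 0.0181 and 0.0586 in limma. The first was 0.27, 0.47 and 0.60 in the 3 mice. Its adjusted p in limma lay between 0.0193 and 0.0758 when any 1 array was left out. Over all the alternative settings it reached 0.396.

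Klre1 had signals of 8.30, 8.40 and 7.90 in AktI CTL, against 8.00, 7.97 and 7.40 in wild type CTL. The arrays overlapped because both cultures of mouse 3 were low, yet within each mouse the AktI culture was higher, by 0.30, 0.43 and 0.50. The mean log2 difference was 0.41 (1.33-fold, so under 1.5-fold). Its adjusted p in limma was 0.283, and 0.0311 with mouse as a block. Klrk1 had signals of 10.99, 11.19 and 11.42 in AktI CTL, against 10.93, 11.16 and 11.13 in wild type CTL. These overlapped, and the log2 difference was 0.12 with an interval of -0.14 to 0.39 (adjusted p 0.662, limma).

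Klrg1 had signals of 6.05, 6.01 and 5.87 in AktI CTL, against 6.29, 6.32 and 6.36 in wild type CTL. It was the only member with all AktI arrays below the wild type arrays. Klrg1 thus had a log2 difference of -0.35 ± 0.0716 (SE; 1.27-fold lower, adjusted p 0.0287 in limma), which was -0.24, -0.31 and -0.49 in the 3 mice. The adjusted p lay between 0.0548 and 0.0955 when any 1 array was left out.

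**Figure D3:**
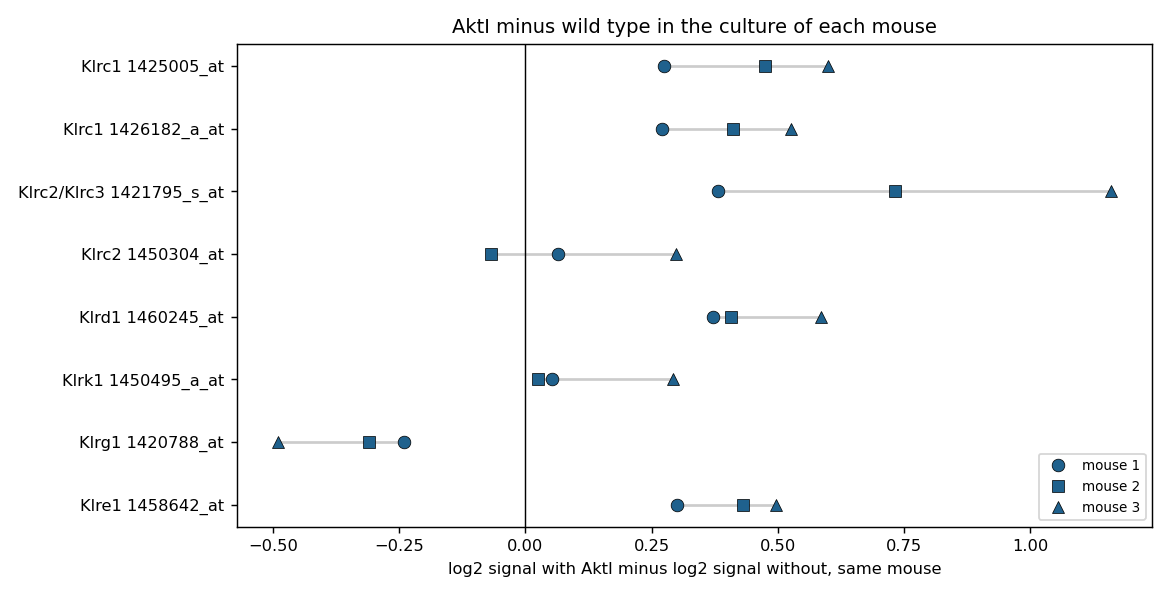
Log2 signal of the AktI culture minus that of the wild type culture of the same mouse (horizontal axis) for each probe set, with 1 symbol per mouse. All 3 mice lie above 0 for Klrc1, Klrc2/Klrc3, Klrd1, Klrk1 and Klre1 and below 0 for Klrg1, and mouse 3 has the difference farthest from 0 for each of these.

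Whether the receptors responded differently to PDK1 deletion and to AktI was tested as the difference of the effects over all 12 arrays. It passed for 0 of the 8 probe sets in limma, against 0.395% of all probe sets. The Klrc2/Klrc3 probe set, which was below background in the PDK1 experiment, had a difference of -0.64 (interval -1.17 to -0.11, adjusted p 0.368 in limma). For Klre1 the difference was 0.39, with an interval of -0.18 to 0.96, and for Klrd1 0.08, with an interval of -0.22 to 0.38. For Klrc1 the intervals were -0.20 to 1.32 and -0.19 to 1.48. The single calls of Klre1 in one experiment and of Klrc2/Klrc3 in the other were therefore not shown to be particular to that experiment.

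The chains and enzymes that carry the signal of these receptors mostly gave small differences, counted by the brightest probe set of each gene. Of 5 partner chains 3 were measured, and 0 passed in either comparison. Hcst, the NKG2D adaptor, differed by 0.17 after PDK1 deletion and 0.25 with AktI. Tyrobp, the adaptor of the activating CD94 receptors, differed by -0.53 (adjusted p 0.139 in limma) and -0.44 (0.0524). Fcer1g, a signalling chain related to the T cell receptor zeta chain, differed by -0.56 (0.0423) and -0.33 (0.0375), both under 1.5-fold. The DAP12 and Fc receptor gamma chains thus had negative differences in both comparisons while those of the CD94 subunits were positive. Of the 3 inhibitory phosphatases and the 10 of 11 activating signal proteins measured, 0 passed in either comparison, with medians of -0.11 and -0.01 after PDK1 deletion and of 0.02 and 0.02 with AktI. Among the phosphatases Inpp5d, which encodes SHIP1 and is named after its values were seen, differed by -0.55 with AktI (1.46-fold, adjusted p 0.0320 in limma) and by -0.11 after PDK1 deletion.

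Of 13 ligand genes, 8 were measured by 7 probe sets, and 0 passed. The Qa-1 gene H2-T23, the ligand of the CD94 receptors, had 2 probe sets, both shared with H2-T-ps, which disagreed. The brighter 1449556_at differed by 0.00 after PDK1 deletion and -0.03 with AktI. The other, 1419658_at, was chosen after its values were seen. It had signals of 8.49, 8.23 and 8.22 in PDK1 null CTL, against 6.73, 6.87 and 6.88 in Cre control CTL, a rise of 1.49 on the log2 scale (adjusted p 0.000413, limma). With AktI it differed by 0.54 (1.46-fold, adjusted p 0.00563). H2-T23 and Pdpk1 both lie on chromosome 17, and the part of this position in the result was not tested.

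Of 36 other lectin receptor genes of the NK gene complex, 21 were measured by 20 probe sets, of which 9 were above background in the PDK1 experiment and 10 in the Akt experiment. None passed after PDK1 deletion, and 1 rose with AktI. Their median log2 differences were -0.01 and 0.00, against 0.53 and 0.41 for the 8 probe sets of the named receptors. These medians take in probe sets below background, a larger share here than among the named receptors. They therefore do not show that higher values were particular to the named receptors. Single differences ran from -0.59 to 0.88 after PDK1 deletion and from -0.51 to 0.84 with AktI. The gene that rose was Klrb1f, by 0.84 (1.79-fold, adjusted p 0.0125 in limma), and without AktI replicate 2 the adjusted p was 0.0526. Klra7, a Ly49 receptor named after its values were seen, differed by 0.67 with AktI (adjusted p 0.341 in limma). It passed once mouse was entered as a block (adjusted p 0.00715). After PDK1 deletion Klra7 differed by 0.88 (adjusted p 0.351) and Klrb1f by 0.66 (0.157). The probe set of Klrb1c, shared with Klrb1b, differed by -0.59 (0.102).

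Of 13 other receptors of NK type that CTL can carry, 11 were measured. After PDK1 deletion 1 rose and 0 fell, with a median of -0.05. It was Fcgr3, the low-affinity Fc gamma receptor III, at 0.91 (adjusted p 0.0486 in limma), and that call was lost without PDK1 null replicate 1 or 3 and without Cre control replicate 1 or 3 (adjusted p 0.142 to 0.157). With AktI 0 rose and 3 fell, with a median of -0.37. Cd244a, which encodes the SLAM family receptor 2B4, fell by 1.30 on the log2 scale (adjusted p 0.000839), Slamf7 fell by 1.28 (0.000167) and Cd160 fell by 0.79 (0.00371). After PDK1 deletion these 3 genes did not pass, with log2 differences of -0.66 (adjusted p 0.0779), -0.53 (0.0257, under 1.5-fold) and -0.32 (0.136), and all PDK1 null arrays lay below all Cre control arrays for each, as for 11.6% of all probe sets. Over all 11 genes and both comparisons, log2 differences ran from -1.30 to 0.91.

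Of 12 genes of effector and memory precursor CTL, 10 were measured. After PDK1 deletion Il7r, the IL-7 receptor alpha chain, rose by 1.37 (adjusted p 0.0107 in limma, and 0.0518 without PDK1 null replicate 3). With AktI Il7r rose by 1.11 (0.000718). Cd27, a costimulatory receptor, rose by 0.82 with AktI (0.0442), a call lost without any 1 of AktI replicates 1 and 2 and the 3 wild type replicates (adjusted p up to 0.142), and differed by 1.30 after PDK1 deletion (0.0600). Prdm1, which encodes the effector transcription factor Blimp-1, fell by 0.70 with AktI (0.00104).

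**Figure D4:**
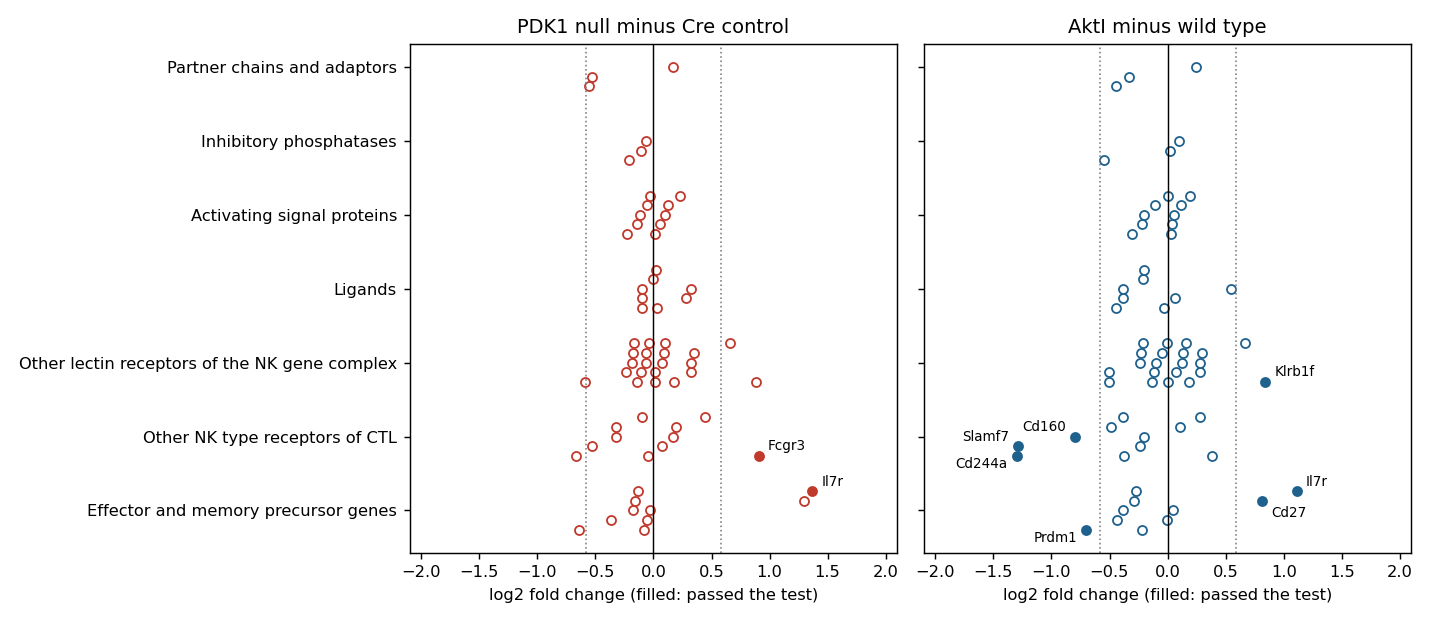
Log2 fold change (horizontal axis) of each measured gene of the 7 lists, by its brightest probe set, for PDK1 null minus Cre control (left) and AktI minus wild type (right), with filled, named points for genes that passed and dotted lines at 1.5-fold. Named points lie at 0.91 and 1.37 on the left, and from -1.30 to 1.11 on the right.

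NK cells carry these receptors too. Of 8 NK cell markers 6 were measured and 4 were above background in each experiment. Ncr1 and Klra8, which NK cells carry, were below background in all groups, and the Klrb1c and Klra9 probe sets are shared with Klrb1b and Klra3. The log2 summed signal of the list was 10.21 to 10.27 in PDK1 null CTL, against 10.60 to 11.03 in Cre control CTL, and 9.87 to 10.21 in AktI CTL, against 10.19 to 10.40 in wild type CTL. The sum was lower in PDK1 null CTL, with no overlap between the groups, and lower with AktI in each of the 3 mice, by -0.19, -0.25 and -0.32. Fcer1g, which mast cells and basophils also carry, made up 83.5% to 83.7% of the sum in PDK1 null and 83.8% to 86.4% in Cre control CTL, and 47.9% to 55.5% in AktI and 50.9% to 58.6% in wild type CTL. The Klra9 probe set had positive differences (0.32 and 0.28). The mast cell and basophil list, of interest because rat Klrg1 was first described on mast cells, summed to 8.11 to 8.66 in PDK1 null CTL, against 8.01 to 8.74 in Cre control CTL, and to 6.69 to 6.93 in AktI CTL, against 6.89 to 7.42 in wild type CTL. It was lower with AktI in each mouse (-0.20, -0.24 and -0.50). In it Mcpt8, a basophil protease, fell by 1.09 with AktI (adjusted p 0.0465 in limma), a call lost without AktI replicate 1 or 2 or any 1 wild type replicate (0.0816 to 0.139), and Fcer1a and Ms4a2 were below background in all groups. Kit, the only other marker of this list above background in the Akt experiment, went the other way, by 0.31 with AktI (adjusted p 0.248 in limma). The monocyte and macrophage list summed to 7.87 to 8.18 in PDK1 null CTL, against 7.78 to 7.88 in Cre control CTL, and to 7.77 to 7.89 in AktI CTL, against 8.26 to 8.59 in wild type CTL, with no overlap in the Akt experiment. In it Cd68, a lysosomal protein of macrophages, fell by 1.30 with AktI (adjusted p 0.00563 in limma) and was the only marker of the list to pass. The other markers of this list differed with AktI by -0.21 (Lyz2) to 0.07 (Itgam), so the lower sum mostly reflects Cd68.

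The B cell list summed to 6.81 to 6.86 in PDK1 null CTL, against 6.75 to 6.89 in Cre control CTL, and to 7.42 to 7.52 in AktI CTL, against 7.19 to 7.41 in wild type CTL, with no overlap in the Akt experiment. The CD4 T cell list summed to 6.62 to 6.67 in PDK1 null CTL, against 6.63 to 6.87 in Cre control CTL, and to 6.95 to 7.07 in AktI CTL, against 7.01 to 7.11 in wild type CTL. Of the genes of these 2 lists 0 passed in either comparison. The part of any of these cells in the results was not tested.

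The genes whose pattern was most like each receptor were picked by Pearson r over the 12 arrays, with each experiment centred on its own mean, among 12545 genes above background. Klre1 was closest to Itgb3bp (0.930), Racgap1 (0.928) and Gpsm2 (0.923). Klrc1 was closest to Top2a (0.955), Naglu (0.943) and Ankle1 (0.939). Klrk1 was closest to Erp29 (0.952), Ankle1 (0.932) and Klrc1 (0.899), and PDK1 null replicate 2 and Cre control replicate 3 were high for both Klrk1 and Klrc1, as given above. Taken by experiment, r of Klrk1 with Klrc1 was 0.980 in the PDK1 and 0.296 in the Akt experiment. With Ankle1 it was 0.987 and 0.620, and for Klrc1 with Naglu 0.993 and 0.614. Klrd1 was closest to Aldh7a1 (0.961), Ostf1 (0.956) and Prdx4 (0.956). The Klrc2/Klrc3 probe set was closest to 1600020E01Rik (0.956), Cradd (0.946) and Pja1 (0.940), and Klrg1 to Kdm8 (0.968), 2310057M21Rik (0.956) and Sephs1 (0.942). These values describe the 12 arrays, which all of the genes share, and are the highest of many, so no test was made of them.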

How the data were processed

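The authors deposited 1 log2 signal per probe set and array, made by robust multichip averaging with Affymetrix Expression Console 1.1, per the submitters' processing notes and the study's methods. The deposited log2 values were used as given. Of 45101 probe sets 64 are array controls and were left out. Of the rest 34945 name 1 gene, 932 several and 9160 none in the platform annotation. In each comparison a limma model (version 3.58.1, R 4.3.3; lmFit, eBayes) without covariates was fitted to the 6 arrays concerned, with Benjamini-Hochberg adjustment across 45037 probe sets. To test whether effects differed, the interaction was taken from a fit of 4 group means. Intervals are not adjusted, and precision is limited by the 3 arrays per group. A probe set is above background when a group mean is. The script was tested on simulated data.

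The members, the 7 pathway lists and the 6 marker lists were chosen with earlier results of these data known. Text names all member probe sets and, from each pathway or marker list, up to 4 genes that passed, together with partner chains, defining markers and a few genes said to be chosen after their values were seen. Genes without a probe set were not analysed here. Alternatives were the SAM statistic of the methods over 20 relabellings, trend and robust settings, quantile and median normalization, exclusion of dim probe sets, no minimum fold, a joint model of 12 arrays, the replicate number as a block, and omission of each array. For AktI, the labels name the mouse of each culture, so the numbers pair the arrays. Arrays of the same mouse correlated, after group means were removed, with r of 0.0343 to 0.17, against -0.102 to 0.0383 for other pairs. Promoter windows are RefSeq's.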

Additional observations from a re-analysis of the deposited data

Results flagged for a closer look

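The effects of PDK1 deletion and of AktI on Slamf7 (1453472_a_at) differed by 0.76 on the log2 scale in the interaction test of limma (adjusted p 0.0187), with -0.53 in PDK1 null against Cre control CTL and -1.28 in AktI against wild type CTL. This difference no longer passed without Cre control replicate 1 or 3, AktI replicate 2 or wild type replicate 1 (adjusted p 0.0547 to 0.0656). The effects on the H2-T23 probe set 1419658_at, shared with H2-T-ps, differed by 0.94 (adjusted p 0.00355), with 1.49 after PDK1 deletion and 0.54 with AktI, and this passed whichever 1 array was left out. Among the marker genes, the effects on Prf1 differed by 1.53 (adjusted p 0.0260), with -0.67 after PDK1 deletion and -2.20 with AktI, and this was lost without PDK1 null replicate 2 or 3, Cre control replicate 1 or 3, AktI replicate 1 or 2, or wild type replicate 1 or 3 (adjusted p 0.0573 to 0.0846). The effects on Cd68 differed by 1.61 (adjusted p 0.0133), with 0.31 after PDK1 deletion and -1.30 with AktI.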

How the results depend on the processing

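Of 943 values of single genes under the alternatives, 856 kept direction and call, 48 lost and 25 gained a call, and 14 changed sign. With the replicate number as a block, Klre1 did not pass after PDK1 deletion (adjusted p 0.0786), which left 0 members; those replicates share only a number (r -0.011 to 0.0496, against -0.074 to 0.041 for other pairs). With mouse as the block in the AktI comparison the member count stayed at 1 and Klra7 was the gene given above whose call changed. In 1 model over all 12 arrays 3 member probe sets, Klre1 and both of Klrc1, passed after PDK1 deletion. All calls there came to 601, against 459. With no fold minimum 4 members passed with AktI, and all calls came to 835 after PDK1 deletion and 2329 with AktI, against 459 and 872. Leaving out 1 array at a time gave 0 to 1 members and 194 to 637 calls after PDK1 deletion, 0 to 1 members and 752 to 888 calls with AktI, and 0 members and 104 to 220 calls for the difference of the effects, against 178. SAM called 535 and 936 probe sets, 1 member in each. Signs changed only where values lay near 0 and 1 array was left out. After PDK1 deletion the range was -0.024 to 0.264 for Klrc2/Klrc3, -0.061 to 0.086 for Klrc2, -0.066 to 0.465 for Mcpt8 and -0.11 to 0.10 for H2-T23 (1449556_at). It was -0.087 to 0.023 for H2-T23 with AktI, and -0.11 to 0.17 for the difference of the effects on Klrg1. Signals near background limit Klrc2/Klrc3, and 3 arrays per group limit every call.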
